A study of Rattus norvegicus with 24 samples.

Results

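Heme oxygenase 1 (Hmox1), biliverdin reductase A (Blvra), metallothionein 2A (Mt2A), ceruloplasmin (Cp) and the p22-phox subunit of NADPH oxidase (Cyba) were followed in rat kidney RNA on 2-colour cDNA arrays. The probes were chosen by their platform gene symbol, which gave 5 genes with values, each from 1 probe, among 1313 named genes and 1561 probes measured on the arrays. Each of these genes is listed at 2 probe IDs with the same clone, and values stood at only 1 of them. Per the labels, 24 arrays compared the diets HS and LS at 2 weeks in strain 13, HS with LS in strain SS, strain 13 with strain SS on HS, and strain 13 with strain SS on LS. SS is the Dahl salt-sensitive rat, and strain 13 is known as the SS rat that carries chromosome 13 of another strain, so both share the SS background elsewhere in the genome. HS and LS stand for high and low salt as the study is known to use them. Salt content, age and the animals behind each RNA are not stated in the labels.

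Each comparison had 3 replicates, and each replicate (an RNA pair) was hybridised on a forward array and on a dye-swap array. Whether replicates are separate animals is not labelled, so the spread behind each p-value may be technical. The values are the deposited log ratios, HS over LS or 13 over SS, with the base of the logarithm not stated, so no fold is given. This direction is likely rather than settled, because it comes from the channels named in 13 titles, of which only 1 belongs to a diet array. With the signs as deposited, the difference of the diet ratios (13 minus SS) and the difference of the strain ratios (HS minus LS) correlated with r = 0.65 across 1006 probes, which are not independent replicates. Turning 1 diet comparison gave r = -0.23 turning 1 strain comparison r = 0.17, and turning 1 of each r = 0.29. A turn of all signs at once would leave these correlations as they are. Of the 6 SS diet arrays, 5 have titles without a strain, and the dye-swap array of replicate 3 begins its title as the strain 13 arrays do but names SS RNAs in both channels. The 12 strain arrays have titles that open as diet comparisons, and were grouped by the channel names that follow. Renal medulla is named in the title of the series and kidney in the labels. Between 726 and 1402 probes had a value per array. A log ratio carries no level, so the tissue could not be checked by level, but 3 of 7 thick ascending limb and distal tubule markers, 3 of 8 collecting duct markers and 10 of 20 proximal tubule markers had values.

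Heme oxygenase opens the heme ring and releases iron, carbon monoxide and biliverdin, which biliverdin reductase turns into bilirubin. Metallothioneins are small cysteine-rich proteins that bind zinc and copper, and ceruloplasmin is a copper-carrying ferroxidase. NADPH oxidases pass electrons from NADPH to oxygen and make superoxide, and p22-phox anchors their catalytic subunits in the membrane. In the kidney medulla, superoxide and the defences against it are studied as factors in salt-sensitive hypertension. None of the 5 genes lies on the substituted chromosome: in the RefSeq table of assembly GRCr8, Hmox1, Mt2A and Cyba are on chromosome 19, Cp on chromosome 2 and Blvra on chromosome 3.

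Of these 5 genes, Mt2A, Cyba and Cp were higher on HS than on LS in SS, and none passed the test in strain 13 or between the strains. The test was limma with Benjamini-Hochberg adjustment over all probes of a comparison, at an adjusted p below 0.05. The 3 calls (60% of 5) stand beside 1.83% of all 1310 probes called higher in SS and 2.82% called in either direction (0.992% lower). The members were chosen with such results known, so their count is a description. By direction alone, 4 of the 5 genes (all but Blvra) were above 0 in all 3 SS replicates, against 22.1% of the probes measured in all 3, and Blvra was below 0 in all 3, against 19.5%. In strain 13, Mt2A and Cp were above 0 in all 3 (15.7% of probes) and Blvra below (15.8%), of 4 genes measured in all 3. Between strains on HS, Blvra, Cp and Cyba were below 0 in all 3 (20% of probes) and 0 of 4 genes above (28.3%). On LS, Blvra and Cyba were below 0 in all 3 (17.6%) and 0 of 4 above (26.5%). In the plot of single arrays, the SS diet values of Mt2A, Hmox1, Cp and Cyba all lie above 0.

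**Figure D1:**
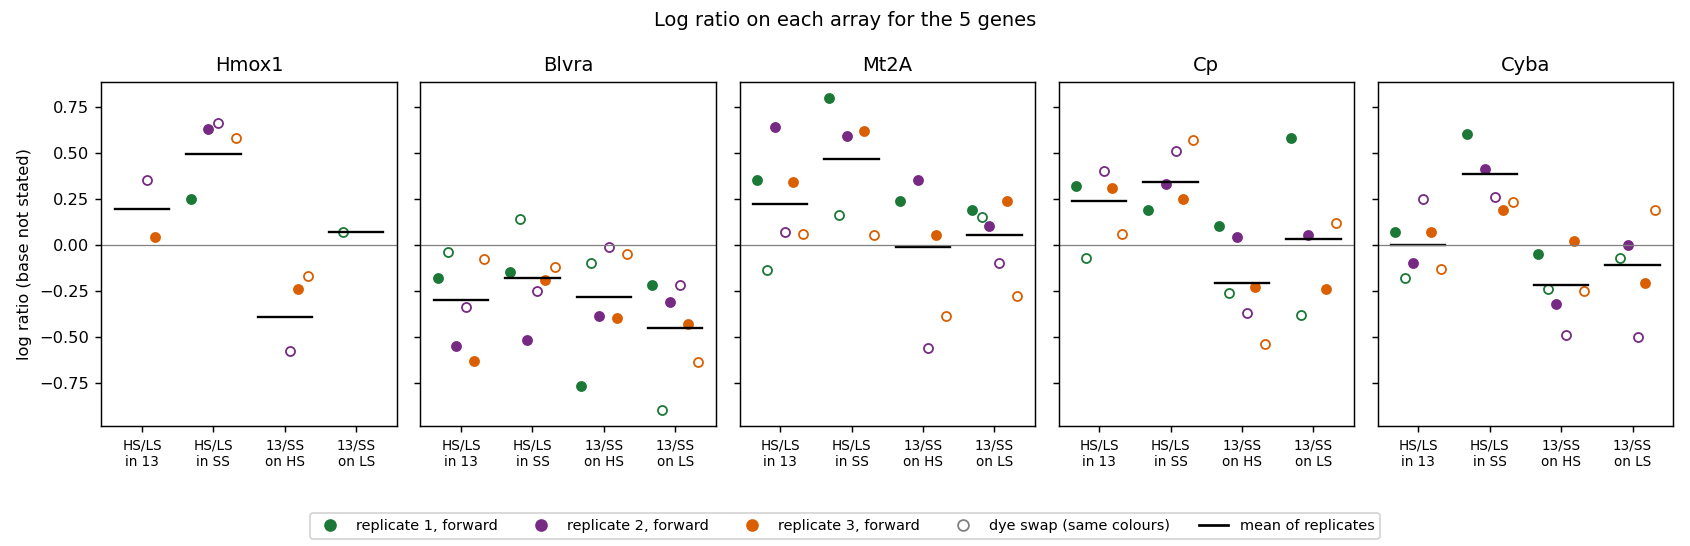
Log ratio (base not stated, vertical axis) of each gene on every array with a value, by comparison. Colours mark the replicates, filled points the forward arrays, open points the dye-swap arrays and black lines the mean of the replicates. Blvra lies mostly below 0 in all 4 comparisons, and the filled Mt2A point lies above the open one of the same replicate.

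Hmox1, the inducible heme oxygenase, had values on 10 of the 24 arrays. In strain 13 the HS over LS log ratio was 0.35 in replicate 2 and 0.04 in replicate 3, each from 1 array, and replicate 1 had no value. In SS it was 0.25, 0.645 and 0.58 in replicates 1 to 3, with both dye orientations measured only in replicate 2, where they gave 0.63 and 0.66. The value of replicate 3 came from the array of conflicting title alone, and without that array the SS mean was 0.45 (limma adjusted p = 0.129). All 3 SS values were above 0, and 1 of them lay below the higher strain 13 value. The SS mean of 0.49 ± 0.21 (SD, n = 3) was the highest of the 5 genes but did not pass (limma adjusted p = 0.0617, 95% interval 0.22 to 0.76). In strain 13 the mean was 0.20 ± 0.22 (SD, n = 2, adjusted p = 0.711). The SS value passed in 5 of 17 alternative settings, among them a fit without replicate 1 (0.61, limma adjusted p = 0.0284), and its adjusted p ran from 0.00643 to 0.407 over them.

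Between strains on HS, Hmox1 had -0.58 in replicate 2, from the dye-swap array alone, and -0.205 in replicate 3, so that both values were lower in strain 13. The mean was -0.39 ± 0.27 (SD, n = 2, limma adjusted p = 0.149). On LS a single array gave 0.07, and no test was made there, nor of the difference between strains in the diet change.

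Blvra, which makes bilirubin from the product of heme oxygenase, was measured on all 24 arrays, the only one of the 5 genes with no missing value. In strain 13 the HS over LS log ratio was -0.11, -0.445 and -0.355, and in SS it was -0.005, -0.385 and -0.155. Between strains it was -0.435, -0.20 and -0.225 on HS and -0.56, -0.265 and -0.535 on LS. Thus none of the 12 RNA pairs lay above 0, which held for 7 of the 1006 probes measured in every pair (0.696%). The 12 pairs are not independent, since the comparisons share groups and in part RNAs. That share counts only this pattern of signs, which depends on which group stands on top of each ratio. The diet means were -0.30 ± 0.17 in strain 13 (limma adjusted p = 0.403) and -0.18 ± 0.19 in SS (adjusted p = 0.319; SD, n = 3 each). The strain means were -0.29 ± 0.13 on HS (limma adjusted p = 0.105) and -0.45 ± 0.16 on LS (adjusted p = 0.0904; SD, n = 3 each).

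On LS the strain value of Blvra had the 4th lowest p of 1229 probes, while 0 probes of that comparison were called (percent called 0). Blvra was 1 of 268 probes on LS with an unadjusted p below 0.05. Blvra passed as lower in strain 13 in 6 of 18 alternative settings on LS and in 5 of 18 on HS, with values below 0 in all of them. The size differed with the dye orientation: on HS it was -0.52 on forward arrays (limma adjusted p = 0.0208) and -0.053 on dye-swap arrays (adjusted p = 0.76), and on LS -0.32 on forward arrays (adjusted p = 0.111) and -0.59 on dye-swap arrays (adjusted p = 0.0165). The diet change of Blvra did not differ between strains beyond its error (13 minus SS, 0.02, 95% interval -0.18 to 0.23, limma adjusted p = 0.922).

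The proximal tubule markers varied between replicates of a comparison. Their median was -0.05, -0.31 and -0.41 in replicates 1 to 3 for the diet in strain 13 and 0.29, -0.435 and -0.34 for the diet in SS. It was -0.795, -0.035 and -0.415 between strains on HS and -0.15, -0.055 and -0.44 on LS, over the markers with a value. In each of the 4 comparisons the replicate with the highest marker median was the one in which Blvra stood nearest to 0, which is replicate 1 for both diet comparisons and replicate 2 for both strain comparisons. The other replicates did not follow that order for the diet in strain 13 or between strains on LS. On LS replicate 1 had the lowest Blvra value (-0.56) but not the lowest marker median. On HS the match with the highest median rests on a Blvra value of -0.20 in replicate 2 against -0.225 in replicate 3. The forward and dye-swap arrays of that replicate 2 gave -0.39 and -0.01. The part of the proximal tubule share in the Blvra values was not tested. In bulk RNA, fewer cells of a type and less RNA per cell cannot be told apart.

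**Figure D2:**
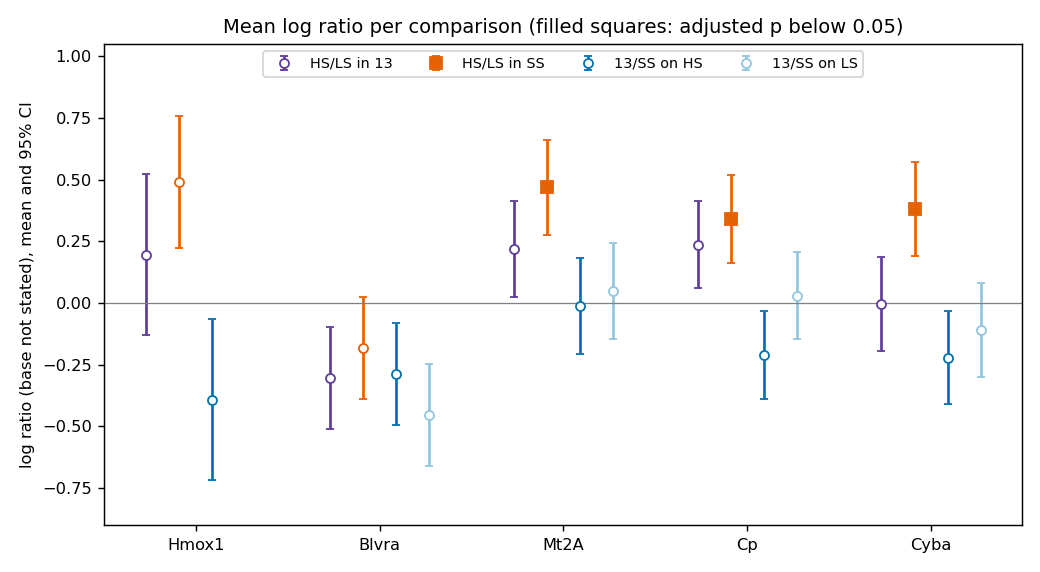
Mean log ratio (base not stated) with its 95% interval from limma for each gene in the 4 comparisons. Filled squares have an adjusted p below 0.05 and are the SS diet values of Mt2A (0.47), Cp (0.34) and Cyba (0.38); Hmox1 on LS has 1 value and is not drawn.

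Mt2A, a metallothionein that binds zinc and copper and is known to be induced by metals through MTF1, rose on HS in SS. The log ratio was 0.105, 0.355 and 0.20 in strain 13, against 0.48, 0.59 and 0.335 in SS. All 6 values were above 0, and the groups overlapped by 1 pair of values, 0.355 in strain 13 and 0.335 in SS. The means were 0.22 ± 0.13 in strain 13 (limma adjusted p = 0.48) and 0.47 ± 0.13 in SS (adjusted p = 0.0162; SD, n = 3 each). In the SS comparison it had the 18th lowest p of 1310 probes.

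The Mt2A probe differed between dye orientations. In all 10 RNA pairs measured both ways the forward array was higher than the dye-swap array, by 0.47 ± 0.25 (SD over 10 pairs), a size above that of 90.1% of the 1066 probes with at least 7 such pairs. The dye-swap array of SS replicate 2 had no Mt2A value, so its 0.59 is a forward value only. Over the SS pairs measured both ways, 0.48 and 0.335, the value was 0.41 (limma adjusted p = 0.0196), and with a dye term for each probe it was 0.40 (adjusted p = 0.00211). Both of these settings were chosen after seeing the data. On the 2 dye-swap arrays of SS alone it was 0.11 (limma adjusted p = 0.703), and on the 3 forward arrays 0.67 (adjusted p = 0.00119).

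**Figure D3:**
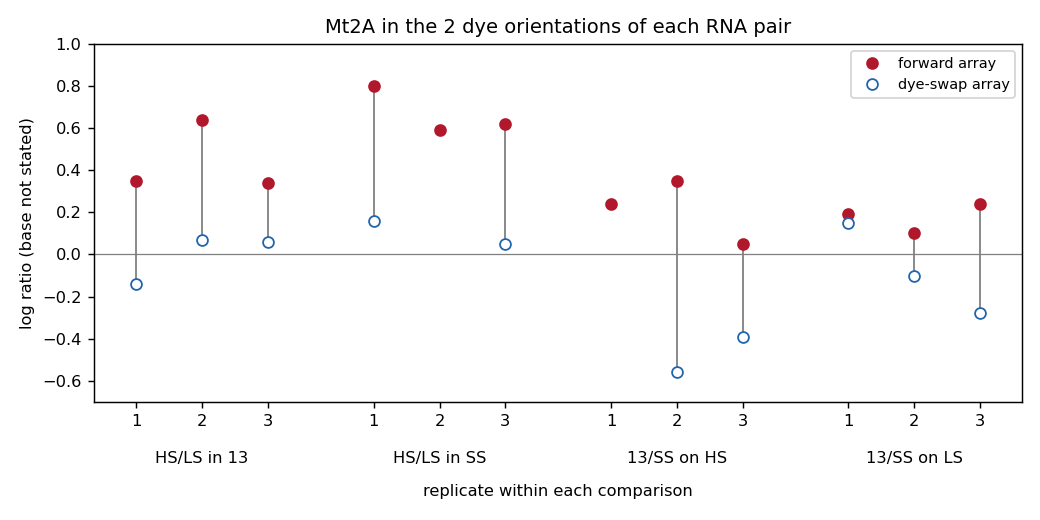
Mt2A log ratio (base not stated) on the forward and dye-swap arrays of each RNA pair, joined by a line where both were measured. The forward value is the higher one in all 10 joined pairs, and the pairs without a dye-swap value are SS diet replicate 2 and the strain comparison on HS replicate 1.

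On forward arrays Mt2A also passed in strain 13 (0.44, limma adjusted p = 0.0406), where the dye-swap arrays gave -0.0033.

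Between strains, Mt2A had 0.24, -0.105 and -0.17 on HS and 0.17, 0.00 and -0.02 on LS. Replicate 1 was the highest in both, and on HS it was a forward value only. The means were -0.01 ± 0.22 on HS (limma adjusted p = 0.966, 95% interval -0.21 to 0.18) and 0.05 ± 0.10 on LS (adjusted p = 0.774, -0.14 to 0.24; SD, n = 3 each). On HS the sign changed with the setting, with 0.21 on forward arrays and -0.48 on dye-swap arrays (limma adjusted p = 0.0145).

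The promoters of the 3 genes that rose in SS are shown because metal response elements, the sites bound by MTF1, are known in metallothionein promoters. The sequences are the 250 bases before the RefSeq start, from RefSeq on build GRCr8, 5′ to 3′ on the strand of the gene, and capitals mark matches to the metal response element core. Mt2A is at chr19:10838709-10838958 (minus strand), Cp at chr2:104368420-104368669 (plus strand) and Cyba at chr19:67404215-67404464 (minus strand).
Mt2A: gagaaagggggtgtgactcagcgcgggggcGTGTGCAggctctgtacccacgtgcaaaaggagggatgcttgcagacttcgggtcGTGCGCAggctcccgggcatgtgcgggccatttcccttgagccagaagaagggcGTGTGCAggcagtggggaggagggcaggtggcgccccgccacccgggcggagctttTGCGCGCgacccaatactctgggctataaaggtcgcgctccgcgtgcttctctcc
Cp: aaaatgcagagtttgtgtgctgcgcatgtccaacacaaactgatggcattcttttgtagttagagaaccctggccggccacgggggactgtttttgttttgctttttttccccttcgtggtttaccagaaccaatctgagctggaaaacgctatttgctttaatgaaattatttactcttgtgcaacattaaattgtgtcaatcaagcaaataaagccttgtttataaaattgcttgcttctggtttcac
Cyba: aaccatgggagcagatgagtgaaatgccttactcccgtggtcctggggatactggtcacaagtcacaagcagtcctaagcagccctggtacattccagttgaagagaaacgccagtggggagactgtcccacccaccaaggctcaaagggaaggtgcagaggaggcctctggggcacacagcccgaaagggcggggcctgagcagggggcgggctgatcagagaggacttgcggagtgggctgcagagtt
The core was searched as TGCACNC or TGCGCNC on both strands. The Mt2A window held 4 matches, at -220 to -214, -165 to -159, -111 to -105 and -55 to -49 counted back from the start, and the Cp, Cyba and Blvra windows held 0. Hmox1 had no promoter entry and was not searched for either core. Of all 33469 promoter windows of this length 20.6% held at least 1 match and 0.266% at least 4. The antioxidant response element core, searched as TGACNNNGC on both strands, matched 1 time in the Mt2A window (-237 to -229), where it overlapped no metal core match, 1 time in that of Blvra (-145 to -137) and 0 times in those of Cp and Cyba. It occurred in 10.1% of all windows. A match is a description of letters and not a binding site.

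Cp, the copper ferroxidase of plasma, also rose on HS in SS. The log ratio was 0.125, 0.40 and 0.185 in strain 13, against 0.19, 0.42 and 0.41 in SS. All 6 values were above 0 and the groups overlapped. However, 0.40 in strain 13 replicate 2 came from the dye-swap array alone, and 0.19 in SS replicate 1 from the forward array alone. Over the pairs measured in both orientations Cp had 0.155 in strain 13 (limma adjusted p = 0.534) and 0.415 in SS (adjusted p = 0.0256). This setting was chosen after seeing the data. The means were 0.24 ± 0.14 in strain 13 (limma adjusted p = 0.417, 95% interval 0.06 to 0.41) and 0.34 ± 0.13 in SS (adjusted p = 0.0483, 0.16 to 0.52; SD, n = 3 each). The SS call stood at the threshold, was the last of the 37 by p, and was lost in 10 of 18 alternative settings, with values from 0.26 to 0.54 over the 18. Between strains Cp had -0.08, -0.165 and -0.385 on HS, all below 0, and 0.10, 0.05 and -0.06 on LS. The means were -0.21 ± 0.16 on HS (limma adjusted p = 0.149) and 0.03 ± 0.08 on LS (adjusted p = 0.852; SD, n = 3 each). On HS it was -0.03 on forward arrays, -0.39 on dye-swap arrays (limma adjusted p = 0.0246) and -0.12 without replicate 3. On LS replicate 1 the arrays gave 0.58 forward and -0.38 swapped, the widest gap of any Cp pair, and that forward array held the fewest values of all arrays.

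Cyba encodes p22-phox, the membrane partner of the NADPH oxidase catalytic subunits, and it rose on HS in SS. The log ratio was -0.055, 0.075 and -0.03 in strain 13, against 0.60, 0.335 and 0.21 in SS. The SS values all lay above the strain 13 values, although 0.60 in SS replicate 1 came from the forward array alone. The means were -0.00 ± 0.07 in strain 13 (limma adjusted p = 0.997, 95% interval -0.19 to 0.19) and 0.38 ± 0.20 in SS (adjusted p = 0.039, 0.19 to 0.57; SD, n = 3 each). Over the SS pairs measured in both orientations the value was 0.27 and did not pass (limma adjusted p = 0.118). Between strains Cyba had -0.145, -0.405 and -0.115 on HS and -0.07, -0.25 and -0.01 on LS, all below 0. The means were -0.22 ± 0.16 on HS (limma adjusted p = 0.154) and -0.11 ± 0.12 on LS (adjusted p = 0.467; SD, n = 3 each).

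Cyba is known to be made by phagocytes as well as by kidney cells. Of 18 leukocyte markers 4 were tested in SS and 0 passed by limma: Cd53 had 0.22 ± 0.15 (SD, n = 3), Cd37 0.36, Cd48 0.01 and Lyz2 -0.13. Over the markers with a value in each replicate, which include an untested one, the median was 0.11, 0.11 and -0.285 in SS replicates 1 to 3. Cd53 was the only one of the 4 tested with an unadjusted p below 0.05 by limma. In strain 13 Cd53 had 0.37 ± 0.28 (SD, n = 3), Cd48 0.15 and Cd37 0.03, and 0 of 3 passed by limma. Between strains on HS, Lyz2 fell (-1.51 ± 0.83, SD, n = 3, limma adjusted p = 0.0321), while Cd37 had -0.19, Cd53 -0.03 and Cd48 0.08. On LS Lyz2 had -0.52, Cd48 -0.07 and Cd53 -0.01, and 0 of 3 passed by limma. Catalytic and cytosolic NADPH oxidase subunits could not be set beside Cyba, since 0 of the 13 listed genes (Cybb, Ncf1, Nox4 and others) had a value. Of 9 erythrocyte markers, whose cells carry heme, 3 were tested in SS, 0 passed by limma and all 3 were below 0 (median -0.08). All 3 thick ascending limb and distal tubule markers were below 0 in all 3 SS replicates (median -0.25) and 0 passed by limma, with Egf at -0.31 (adjusted p = 0.0502), Umod at -0.25 (adjusted p = 0.0617) and Slc12a1 at -0.23. The 3 collecting duct markers were also below 0 in SS (median -0.12) and 0 passed, and the 1 endothelial marker, Kdr, had 0.04. Of 3 smooth muscle markers 1 rose in SS (Tagln, 0.70 ± 0.35, SD, n = 3) with a median of 0.49, and of 10 proximal tubule markers 1 fell (Dnase1, -0.52) with a median of -0.15. The part of these cell types in the 5 genes was not tested.

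The SS calls changed with the replicates used. Without replicate 2 or without replicate 3 (of all groups), 0 of the 5 genes and 0 of all probes passed in SS, and without replicate 1 the calls were Mt2A, Cp and Hmox1, with Cyba at 0.27 (limma adjusted p = 0.117). With the replicate number as a block only Mt2A passed (limma adjusted p = 0.027), with adjusted p = 0.0649 for Cp and 0.0588 for Cyba, and 0 passed when the 3 SS replicates were fitted alone. Without the array of conflicting title Mt2A had 0.56 and Cyba 0.38, both passing, and Cp 0.29 (limma adjusted p = 0.0608). That fit left Mt2A with forward values alone in SS replicates 2 and 3 (0.59 and 0.62), the orientation that ran higher for its probe.

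Whether the salt response differed between the strains was tested as the diet change in strain 13 minus that in SS, estimated from the diet arrays and the strain arrays together. Cyba had -0.25 (95% interval -0.44 to -0.06), lower in strain 13 in 3 of 3 replicates, with an unadjusted p of 0.0148 that did not pass by limma (adjusted p = 0.194). Cp had -0.17 (limma adjusted p = 0.329) and Mt2A -0.16 (adjusted p = 0.397), also below 0 in 3 of 3 replicates. Blvra was above 0 in 3 of 3 with an estimate of only 0.02 (limma adjusted p = 0.922). The share of all probes with such agreement was not computed, so it is a description. In all, 0 of 4 genes tested passed, 1 had an unadjusted p below 0.05 (as had 15.6% of all probes), 0 passed by an ordinary per-probe test, and 0.43% of all 1164 probes passed. A call in SS without one in strain 13 is therefore no shown difference between the strains. The estimates treat RNAs as independent, although names of SS RNAs of replicate 3 recur in diet and strain arrays. Across 1006 probes, deviations of same-numbered replicates of the SS diet and of the strain comparison on HS correlated at -0.665, -0.593 and -0.29, which the interval does not allow for. With the difference taken within each replicate number, Cyba had an unadjusted p of 0.0236 (limma adjusted p = 0.333).

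The 2 routes to that difference gave the same sign for 4 of the 5 genes. For Hmox1, 1 of these 4, the strain route rests on 1 array on LS (0.07), and its difference was not tested. From diet arrays and from strain arrays, Hmox1 had -0.30 and -0.46, Cp -0.10 and -0.24, Cyba -0.385 and -0.11, and Mt2A -0.25 and -0.06. Blvra had -0.12 and 0.17. Both routes share RNAs in part and are a description. They correlated at r = 0.65 across 1006 probes, and the share of all probes with the same sign was not computed.

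Across the strain comparisons 0 of the 5 genes passed by limma on HS, against 6% of 1350 probes (3.63% higher and 2.37% lower), and 4 had an unadjusted p below 0.05, as had 23.1% of all probes. On LS 0 of 4 tested passed, and 1 had an unadjusted p below 0.05, as had 21.8% of all probes. An ordinary per-probe test called 0 members in both. For the diet in strain 13, 0 of 5 passed by limma with 3 at an unadjusted p below 0.05 (Blvra, Cp and Mt2A), against 0 of 1287 probes (percent called 0) and 119 (9.25%) at that unadjusted p. All 5 gene means were below 0 on HS between strains (median -0.22, against 0.02 over all probes), although that of Mt2A changed sign with the setting. Of all probes tested there, 54.7% lay above 0. On HS 3 of 3 collecting duct markers rose, and of 9 proximal tubule markers 2 fell and 1 rose. Of 3 thick ascending limb and distal tubule markers, all above 0, 1 rose (Egf, 0.29, limma adjusted p = 0.0434), and so did the 1 endothelial marker (Kdr, 0.315, adjusted p = 0.0241); their part in the 5 genes was not tested. The titles of the strain arrays hold a text that may mark a batch, shared by both diets only in replicate 3. Within it Blvra had -0.225 on HS and -0.535 on LS, Cyba -0.115 and -0.01, Cp -0.385 and -0.06, and Mt2A -0.17 and -0.02. With the strain pairs fitted alone and this text as a random block, Blvra passed on HS (-0.31, limma adjusted p = 0.0158) and on LS (-0.43, adjusted p = 0.0251). The block was the text of the dye-swap array of each pair, and on LS replicate 1 the forward array carries another text. That fit changed both the samples and the block and estimated a correlation of -0.47 within a text, which is below 0, so these calls do not show that a shared batch was allowed for.

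**Figure D4:**
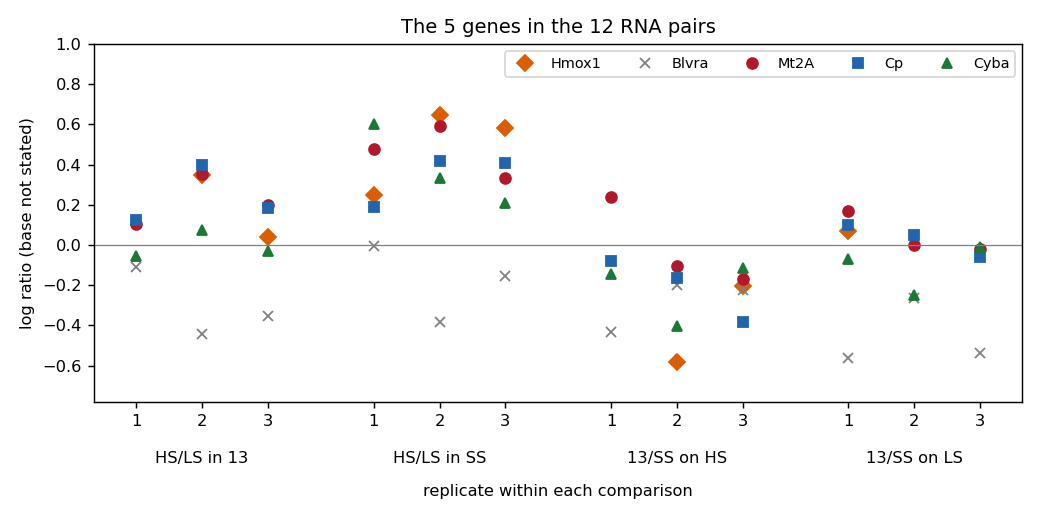
Log ratio (base not stated) of the 5 genes in each of the 12 RNA pairs, as the mean of the arrays with a value. Mt2A, Cp, Cyba and Hmox1 stand above 0 together in the 3 SS diet pairs, while Blvra stands at or below 0 in all 12 pairs.

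Mt2A, Cp, Cyba and Hmox1 varied together over the RNA pairs, with Blvra apart from them. Over 12 RNA pairs Mt2A correlated with Cp at r = 0.84 and with Cyba at r = 0.82, and Cp with Cyba at r = 0.62. Over the 8 pairs with an Hmox1 value, Hmox1 correlated at r = 0.88 with Mt2A, 0.87 with Cp and 0.78 with Cyba. Blvra correlated with Mt2A at r = 0.04, with Cp at -0.00 and with Cyba at 0.28. These are descriptions, since pairs share RNAs, dyes and the differences between comparisons.

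Among 989 candidate probes with a gene symbol and at least 10 shared RNA pairs, those most like each gene over the pairs were ranked by Pearson r. For Mt2A they were Ceacam4 (0.87), Cp (0.84) and Mgp (0.84), and for Cp they were Ceacam4 (0.91), Col1a1 (0.90) and Clu (0.90), all over 12 pairs. For Cyba they were Rpl17-ps16 (0.87, 12 pairs), Mmp23 (0.85, 10 pairs) and Tmsb10 (0.83, 12 pairs). For Blvra they were C1qbp (0.84), Ppp2cb (0.84) and Cycs (0.83) over 12 pairs. Hmox1 had too few pairs.

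None of the other measured genes of heme, metal and oxidant handling passed by limma in any of the 4 comparisons. Of 37 such genes with values, 35 were tested in SS and 0 passed by limma, 5 had an unadjusted p below 0.05 (against 19.5% of all probes), and 1, Gstm2, passed by an ordinary test of each probe. The list had 27 genes below 0 and 8 above, with a median of -0.07 against -0.01 over all probes. Of all probes tested in SS, 48.2% lay above 0. In strain 13, 0 of 35 passed by limma and 0 by the ordinary test, 3 had an unadjusted p below 0.05 (against 9.25% of all probes), and the median was -0.04. Between strains, 0 of 37 passed by limma on HS, where 11 had an unadjusted p below 0.05 (against 23.1% of all probes) and Gstm2 passed by the ordinary test (0.19), and 0 of 34 on LS, where 9 had such a p (against 21.8%) and 0 passed by the ordinary test.

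Among genes of heme synthesis, breakdown and binding, 0 of 6 passed in SS and all 6 were below 0 (median -0.085). Por, which passes electrons to cytochromes P450 and to heme oxygenase, had -0.08 in strain 13 and -0.23 ± 0.15 in SS (SD, n = 3, limma adjusted p = 0.216). Hmox2, the constitutive heme oxygenase, was added after its values were seen and had -0.13 in strain 13 and -0.10 in SS, where Hmox1 had 0.49. Alad, an early enzyme of heme synthesis, had -0.25 ± 0.09 (SD, n = 3, limma adjusted p = 0.403) in strain 13. Between strains Alad had -0.17 on HS and -0.21 on LS, and Alas1, the rate-limiting enzyme, 0.13 and 0.15, with 0 of 7 passing on HS and 0 of 6 on LS. Cyb5r3, a cytochrome b5 reductase, had -0.045 on HS and -0.18 on LS.

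Of the iron and copper genes 0 of 4 passed in SS (median -0.12), against 0.34 for Cp. Tf, the iron carrier transferrin, had -0.14 in strain 13 and -0.19 in SS, and between strains -0.39 ± 0.26 on HS (limma adjusted p = 0.0505) and -0.45 ± 0.11 on LS (adjusted p = 0.0904; SD, n = 3 each). Aco1, an iron sensor of the cytosol, had -0.03 in strain 13 and -0.24 in SS. Fth1, the heavy chain of the iron store ferritin, had 0.01 in strain 13 and 0.07 in SS. Lcn2, which binds iron-carrying siderophores, was tested only between strains on HS, with 0.26 ± 0.19 (SD, n = 3, limma adjusted p = 0.19). The only other metallothionein with a value was Mt3, with 0.07 ± 0.23 in strain 13 and 0.38 ± 0.27 in SS (limma adjusted p = 0.079; SD, n = 3 each). Metallothionein transcripts are similar in sequence, and probes of cDNA clones may not separate them.

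Of 15 antioxidant enzymes and regulators 0 passed in SS, with 5 above and 10 below 0. Prdx2, a peroxiredoxin that removes peroxides, had 0.12 in strain 13 and 0.28 ± 0.15 in SS (SD, n = 3, limma adjusted p = 0.0951). Nfe2l2, the factor NRF2 that drives antioxidant genes, had 0.105 in strain 13 and -0.19 ± 0.08 in SS (SD, n = 3, limma adjusted p = 0.199). Gclm, which sets the rate of glutathione synthesis with its catalytic partner, had -0.37 on HS and -0.53 on LS between strains, and Sod2, the mitochondrial superoxide dismutase, -0.12 and -0.22, with 0 of 15 passing in either. All 6 glutathione transferases were below 0 in SS (median -0.16) and 0 passed. Gstm2 had 0.04 in strain 13 and -0.24 ± 0.09 in SS (SD, n = 3, limma adjusted p = 0.0583). Its diet change in strain 13 minus that in SS was 0.28 and did not pass by limma (adjusted p = 0.0569). By the ordinary per-probe test that difference passed (adjusted p = 0.0378). Gsta2 had the most negative value of the lists in both strain comparisons, with -0.67 ± 0.51 on HS (limma adjusted p = 0.0922) and -0.665 ± 0.24 on LS (adjusted p = 0.118; SD, n = 3 each). Gstt1 had -0.25 on HS and -0.115 on LS, and Gstm7 0.34 and 0.24. Of 3 other oxidant sources 0 passed in any comparison. Hao2, a peroxisomal hydroxyacid oxidase that makes hydrogen peroxide, had -0.445 ± 0.40 on HS (limma adjusted p = 0.135) and -0.45 ± 0.28 on LS (adjusted p = 0.139; SD, n = 3 each). Maob, a monoamine oxidase, had -0.24 on HS and -0.08 on LS, and Xdh, xanthine dehydrogenase, had 0.11 in strain 13 and 0.12 in SS.

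**Figure D5:**
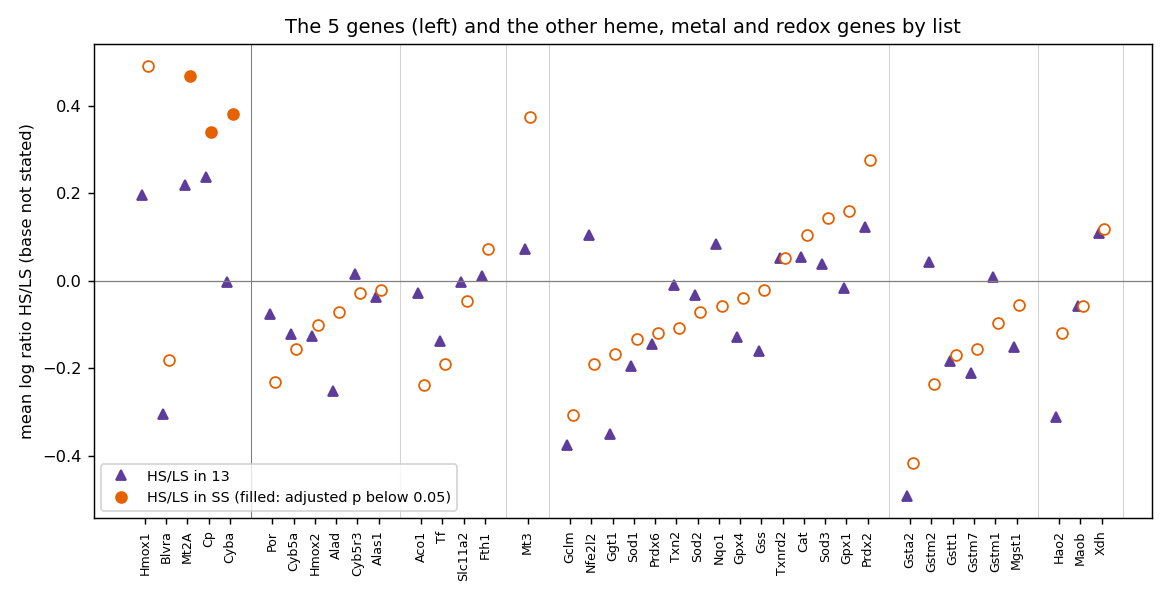
Mean log ratio HS over LS (base not stated) in strain 13 (triangles) and SS (circles) for the 5 genes, at the left, and for the other heme, metal and redox genes, one list after another and in order of the SS value. Filled circles have an adjusted p below 0.05 in SS, and Mt2A, Cp and Cyba are the filled ones.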

How the data were processed

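Each array was deposited as 1 log ratio per probe of its 2 channels, with array means within 0.0049 of 0. The labels state no scanner, background correction, spot filter, normalization or base of the logarithm. Gene symbols came from the platform table, with current symbols looked up in RefSeq (GRCr8) by gene number. Forward and dye-swap arrays of a replicate were averaged into 12 RNA pairs, and 1 strain 13 diet array without a replicate number was taken as replicate 1. Testing needed values in 2 or more of the 3 replicates. The fit, made with limma 3.58.1 (R 4.3.3), gave 4 group means over all pairs, each tested against 0 (two-sided) with Benjamini-Hochberg adjustment. The script was tested on simulated data. The number of arrays limits the precision.

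The members and lists were chosen with earlier results of these data known. Named genes are the 5 members, and from 7 fixed lists those called or, at most 4 a list, with the lowest p in any test; Hmox2 was added outside this rule. Same-numbered deviations of the 2 diet comparisons correlated between 0.154 and 0.25 across probes. Those of the SS diet and the strain comparison on HS ran from -0.665 to -0.29, and the other comparisons from -0.323 to 0.43. The main fit did not pair replicates. Only the replicate block and the difference taken within each replicate number used such pairing. Alternatives covered the probe filter, scaling, centring, dye orientation, replicates, weights, moderation, a block and single arrays.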

Additional observations from a re-analysis of the deposited data

How the results depend on the processing

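With at most 3 replicates and a single spread per probe over 12 RNA pairs, the calls depended on the setting, and the causes of these shifts were not tested. Alternatives with a dye term, with both orientations required and without the sparse array were chosen after seeing the data. Of the 5 genes, the number called for the diet in SS (3) was 1 with the replicate block, 1 without variance moderation, 0 with its own replicates only and 0 to 3 over the fits that leave out a replicate. It was 4 with separate arrays, with array weights and with a dye term. It was 2 without a probe filter, with equal spread, on forward arrays and on dye-swap arrays. It was also 2 without the conflicting title, with both orientations and without the sparse array. For the diet in strain 13 (0) it was 1 on forward arrays. Between strains on HS (0) it was 1 on forward arrays, with the batch text and with a dye term, and 2 on dye-swap arrays, with separate arrays and with array weights. On LS (0) it was 1 with equal spread, on dye-swap arrays, and with separate arrays, weights, batch text or dye term.

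All probes called in SS (37) numbered 0 with own replicates only, 118 on forward and 62 on dye-swap arrays, 117 with separate arrays, 181 with weights, 60 without the conflicting title, 127 with a dye term, 61 with both orientations and 0 to 134 over the fits that leave out a replicate. They numbered 31 with the replicate block, 38 without moderation, 36 without a probe filter, 55 with equal spread and 39 without the sparse array. In strain 13 (0) they numbered 15 on forward and 3 on dye-swap arrays, 9 with separate arrays, 7 with a dye term and 0 to 1 leaving out a replicate. Between strains on HS (81, of them 49 higher and 32 lower) they numbered 13 with equal spread (10 higher, 3 lower), 0 with own replicates only, 40 with the replicate block (30 higher, 10 lower), 127 on forward and 411 on dye-swap arrays, 187 with separate arrays, 50 without moderation (38 higher, 12 lower), 213 with weights, 243 with the batch text, 188 with a dye term and 0 to 27 leaving out a replicate. On LS (0) they numbered 23 with equal spread, 70 on forward and 51 on dye-swap arrays, 67 with separate arrays, 26 without moderation, 43 with weights, 105 with the batch text, 63 with a dye term, 3 with both orientations and 0 to 1 leaving out a replicate. For the diet-by-strain difference (5) they numbered 17 with values in all 3 replicates, 0 with equal spread or own replicates only, 8 with the replicate block, 13 on forward and 12 on dye-swap arrays, 63 with separate arrays, 52 with weights, 12 without the conflicting title, 46 with a dye term, 29 with both orientations, 2 without the sparse array and 0 to 10 leaving out a replicate.

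Values that changed sign were all uncalled. Blvra for diet by strain was -0.18 on forward arrays. Cp between strains on LS was -0.00034 with equal spread, -0.005 to 0.075 leaving out a replicate, and -0.13 on dye-swap arrays and without the sparse array. Cyba in strain 13 was 0.0072 with equal spread, 0.013 on forward arrays, 0.0050 with weights, and -0.0425 to 0.0225 leaving out a replicate (above 0 without replicate 1, and 0.01 without replicate 3). Mt2A was -0.0033 on dye-swap arrays for the diet in strain 13. Between strains on HS Mt2A was 0.0072 with equal spread, 0.21 on forward arrays, 0.00035 with the batch text, and -0.1375 to 0.0675 leaving out a replicate (0.035 without replicate 2). On LS it was -0.01 to 0.085 leaving out a replicate and -0.077 on dye-swap arrays.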
